A study of Rattus norvegicus with 6 samples.

Results

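miR-125a and miR-125b are related microRNAs, and their reads were followed in small RNA libraries of RSC96 cells, a rat Schwann cell line. The members were taken by name: every sequence that the deposited files list under rno-mir-125a or under rno-mir-125b in its copies mir-125b-1 and mir-125b-2, which are 3 of the 821 hairpins listed. They form 5 mature arms of 933, namely miR-125a-5p, miR-125a-3p, miR-125b-5p, miR-125b-1-3p and miR-125b-2-3p. An arm is the side of the hairpin, 5′ or 3′, on which a read lies. Together the arms hold 306 distinct sequences and 142225 of 3983041 counts. The first group is 3 libraries from cells in high glucose and the second is 3 libraries from cells in low glucose, the labelled control, each after 48 h. No strain, genotype or glucose concentration is given in the labels, and they do not tell whether each library had its own culture. The p-values therefore rest on a spread between libraries that may be technical only. The line is immortalised and grows without axons, which limits it as a model of nerve. The labelled protocol for RNA extraction names another tissue, retina, than the cell line label does.

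microRNAs are cut from hairpins and guide Argonaute proteins to messenger RNAs, mainly through the seed, the bases from the second to the eighth. The cut made by Drosha or Dicer and later trimming or addition of bases set the 3′ end, so that 1 arm gives sequences of several lengths, called isomiRs. The miR-125 family is the vertebrate relative of lin-4, the first microRNA described, and its hairpins sit beside those of the let-7 and miR-99/100 families. In peripheral nerve, Schwann cells make myelin, and high glucose is used in culture as a model of diabetic conditions.

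The mature sequences show what the members share and where they part. RefSeq (GRCr8) held all 5 mature sequences, and they are written here with the seed in capitals beside miR-351-5p, the other rat microRNA of that seed.
miR-125a-5p: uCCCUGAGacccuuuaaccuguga
miR-125b-5p: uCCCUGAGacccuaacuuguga
miR-351-5p: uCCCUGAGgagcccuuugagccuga
miR-125a-3p: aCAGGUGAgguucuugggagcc
miR-125b-1-3p: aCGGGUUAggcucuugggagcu
miR-125b-2-3p: aCAAGUCAggcucuugggaccu
The seed CCCUGAG stands in 3 of 693 rat mature names, those of the 5p arms of miR-125a, miR-125b and miR-351. miR-125a-5p and miR-125b-5p share their first 13 bases, and miR-125a-5p and miR-351-5p share their first 8. Each of the 3p arms has a seed found in no other name of that table. No sequence of the miR-125 hairpins was listed under any hairpin outside the family, so their counts are not divided with other microRNAs.

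The hairpins of mir-125a and mir-125b-1, as the deposited files give them, show where the arms lie, with the mature arms in capitals.
mir-125a: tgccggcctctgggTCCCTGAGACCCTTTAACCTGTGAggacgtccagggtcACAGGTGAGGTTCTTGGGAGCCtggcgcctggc
mir-125b-1: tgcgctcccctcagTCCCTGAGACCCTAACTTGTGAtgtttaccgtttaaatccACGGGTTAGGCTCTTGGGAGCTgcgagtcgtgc
In GRCr8, mir-125a lies at chr1:67350675-67350759 on the plus strand within the gene Spaca6, next to mir-99b and let-7e in a stretch of 0.696 kb. The hairpin of mir-125b-1 lies at chr8:50850036-50850122 on the plus strand within the non-coding gene Lnc215, 1 of the genes annotated there, and shares a stretch of 51.8 kb with mir-100 and let-7a-2. The other copy of mir-125b has mir-99a and let-7c-1 as its neighbours. The build that the authors used is not given in the sources used here, and these places come from RefSeq by name.

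The libraries differed in size along with the groups. The high glucose libraries held 963706 to 1354456 counts and the low glucose libraries 114615 to 148143, a 9.31-fold difference in the mean, so depth and group cannot be told apart. The files list a sequence only from 2 reads, which removes more of the rare sequences from a small library. Of 298 tested arms, 62.8% passed edgeR's test at an adjusted p of 0.05, with 40.6% higher and 22.1% lower in high glucose, and the median log2 fold change was 0.67. Upper quartile scaling lowered that median by 0.57 to 0.10 where trimmed-mean (TMM) scaling gave 0.67, so a member's change is also given relative to the median. With every library thinned to 114497 reads, 162 arms could be tested, of which 59 were called higher and 61 lower, and the median was -0.047. Fixed lists of cell type markers, glia included, were also read. The summed TMM-scaled CPM (counts relative to library size) of 5 erythroid arms was 761 to 953 in high and 3247 to 6401 in low glucose. The sum of 4 neuronal arms was 15758 to 21917 against 2792 to 4689, with miR-124 not listed. This sum was carried by miR-128-3p (14281 to 20294 against 1386 to 3129 CPM), while miR-9a-5p averaged 1504 and 1471 CPM (log2 fold change 0.03, adjusted p = 0.867 by edgeR). The liver arm miR-122-5p was at 8501 to 14730 against 3000 to 4321 (lowest to highest library). The sum of 5 retinal arms was 60.4 to 116 against 67.0 to 134, with miR-96 not listed, but its members went opposite ways. In high against low glucose miR-183-5p averaged 18.7 against 59.2 CPM and miR-204-3p 1.63 against 29.5 CPM. The averages of miR-211-5p were 38.7 against 4.59 CPM, and miR-182-3p and miR-204-5p also averaged higher in high glucose. Muscle arms summed to 0 to 56.3 against 0, with miR-133a not listed, and leukocyte arms to 22.8 to 90.0 against 53.6 to 108. The glial arm miR-219a-3p stood at 18.0 to 58.0 against 0 to 44.8, with miR-338 not listed. The part of these RNAs in the results on miR-125 was not tested.

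miR-125a rose in high glucose on both arms. miR-125b-5p, the most abundant of the family, differed little, and the 3p arm of mir-125b-1 lay between. The family took 3.49 to 4.03% of the counts of a high glucose library and 1.95 to 2.22% of a low glucose library. Of the 5 arms, 4 were called higher and 0 lower, beside a background of 40.6% of arms called higher, and their median log2 fold change was 1.50 beside 0.67 over all tested arms. With 5 arms, this count is a description of the family.

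miR-125a-5p, the guide arm of its hairpin, stood at 8231, 12095 and 8354 CPM in the high glucose libraries and at 1474, 1687 and 2313 CPM in the low glucose libraries. These rest on 7959, 14821 and 10218 counts against 214, 252 and 258. The lowest high glucose library was well above the highest low glucose library, a separation in this direction that 45.6% of tested arms showed (25.8% showed the opposite one). The mean of the 3 libraries was 9559.8 ± 2196 CPM (SD, n = 3) with high glucose and 1825 ± 436 CPM (SD, n = 3) with low glucose. The difference was 2.39 on the log2 scale (SE 0.24), a 5.25-fold rise, with an adjusted p of 0.000131 by edgeR's quasi-likelihood test. Relative to the median of all arms the log2 change was 1.72 with TMM scaling and 1.73 with upper quartile scaling. Another scaling moves the arms and their median nearly alike, so these values lie close by construction. The value moved where the set of tested arms changed. It was 2.33 in thinned libraries, -1.07 without the count filter and 1.32 to 2.13 with 1 library left out.

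miR-125a-3p, from the other side of the same hairpin, was far scarcer. It stood at 159, 294 and 285 CPM in high glucose and at 48.2, 40.2 and 26.9 CPM in low glucose. The low values rest on 7, 6 and 3 counts. The groups did not overlap, and the log2 fold change was 2.65 (SE 0.40, adjusted p = 0.000913 by edgeR).

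miR-125b-5p was the most abundant member in every library. It stood at 20844, 20871 and 22091 CPM in high glucose and at 13569.9, 17336 and 14989 CPM in low glucose, on 20155, 25576 and 27021 counts against 1970, 2589 and 1672. By mean level it ranked 11 among all arms in high glucose and 8 in low glucose. The groups did not overlap, but the gap between them was small beside that of miR-125a-5p. The log2 fold change was 0.48 (SE 0.15), a 1.39-fold difference, with an adjusted p of 0.0229 by edgeR. Relative to the median of all tested arms its log2 change was -0.19, but it was 0.39 in thinned libraries, 0.10 among annotated hairpins, 0.11 without high glucose library 1 and 0.14 without high glucose library 2, so its side of the median was not stable.

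The call on miR-125b-5p depended on how it was made. With upper quartile scaling its log2 fold change was -0.12, with DESeq2 it was 0.34 (adjusted p = 0.0938), and with sequences of 20 nt or more alone it was 0.14 (adjusted p = 0.487 by edgeR). Leaving out high glucose library 3 (0.43), low glucose library 1 (0.44) or low glucose library 3 (0.43) each ended the call.

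**Figure D1:**
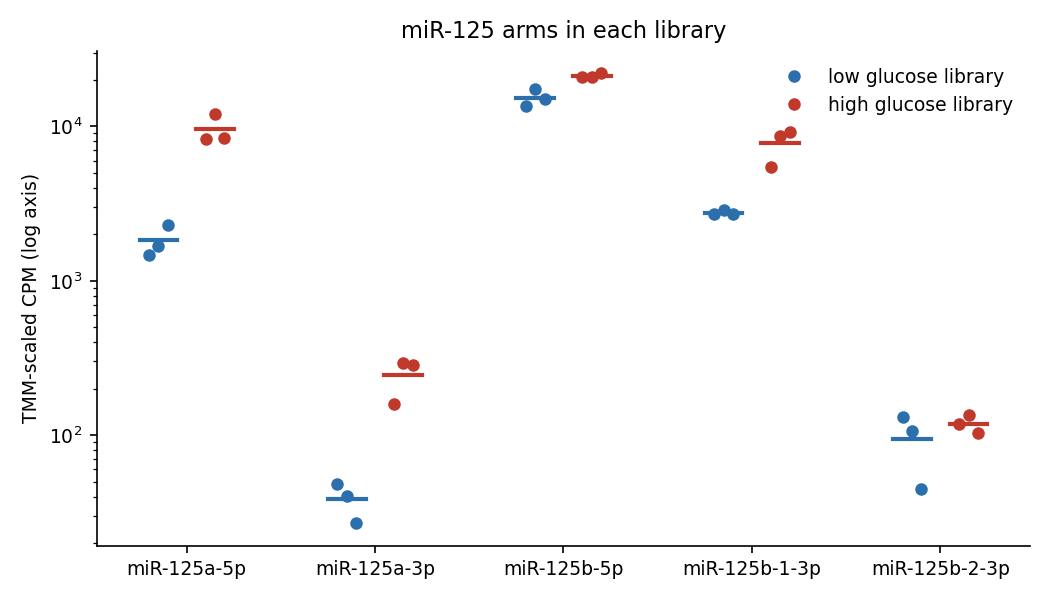
TMM-scaled CPM (log axis) of the 5 miR-125 arms; each point is 1 library, blue for low and red for high glucose, and each line is the mean of 3. miR-125a-5p lies at 8231 to 12095 in high and 1474 to 2313 in low glucose, while miR-125b-2-3p overlaps between the groups.

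The balance between the guide arms moved toward miR-125a. miR-125a-5p made up 28.3, 36.7 and 27.4% of the counts of miR-125a-5p and miR-125b-5p together in high glucose, and 9.80, 8.87 and 13.4% in low glucose. This share needs no scaling between libraries. The means were 30.8 ± 5.11% and 10.7 ± 2.37% (SD, n = 3 each), and the groups did not overlap. The exact two-sided permutation test gave p = 0.1, the smallest that 3 against 3 libraries allow, and 0.138 after adjustment over 18 shares.

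The 3p arms of mir-125b tell its copies apart. miR-125b-1-3p stood at 5452, 8640.3 and 9169.7 CPM in high glucose and at 2693, 2859 and 2698 CPM in low glucose. All 3 high glucose libraries lay above the low glucose ones, with more spread among themselves. The log2 fold change was 1.50 (SE 0.22, adjusted p = 0.000773 by edgeR), which is 0.83 above the median of all arms. Relative to that median it was 1.43 in thinned libraries, -1.96 without the count filter and 0.42 to 1.31 with 1 library left out.

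miR-125b-2-3p, from the other copy, stood at 118, 135 and 103 CPM in high glucose and at 131, 107 and 44.8 CPM in low glucose. Its low glucose counts were 19, 16 and 5, and the groups overlapped. The log2 fold change of 0.30 (SE 0.38) had an adjusted p of 0.513 by edgeR, and without low glucose library 3 it was -0.05, so no difference was detectable at this depth. It was also negative, at -0.32, with upper quartile scaling.

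The copy mir-125b-1 gave nearly all 3p reads in both groups. There were 46.2, 63.8 and 89.0 counts of miR-125b-1-3p for each of miR-125b-2-3p in high glucose, and 20.6, 26.7 and 60.2 in low glucose. The share of mir-125b-1 in the 3p counts was 98.4 ± 0.504% and 96.7 ± 1.53% (SD, n = 3 each), with overlapping groups and an exact two-sided permutation p of 0.2. The 5p arms of the copies are the same sequence, and reads listed under mir-125b-1 alone or mir-125b-2 alone were 0.743% and 0.0355% of the 5p counts. Those of them that matched exactly were 0.598% and 0.0101%.

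Within the hairpins, the 3p share rose for mir-125b. The 3p reads were 21.1, 29.6 and 29.6% of the counts of the mir-125b hairpins in high glucose and 17.2, 14.6 and 15.5% in low glucose. The groups did not overlap, and the log2 ratio of 3p to 5p was 0.95 higher in high glucose (SE 0.30, adjusted p = 0.0330 by limma over 48 hairpins). For mir-125a the 3p reads were 1.898, 2.37 and 3.30% against 3.17, 2.33 and 1.15%, which overlap, and the difference in the log2 ratio was -0.21 (SE 0.39, adjusted p = 0.668 by limma). The sign for mir-125a turned, to 0.05, without low glucose library 1.

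The change in mir-125b was near the median over hairpins. Of the 48, 54.2% passed the test, 45.8% with a higher and 8.33% with a lower 3p share in high glucose, and the median difference was 0.73 on the log2 scale. The call on mir-125b was lost without high glucose library 3 (0.84), without low glucose library 1 (1.02), 2 (0.88) or 3 (0.93), and with exact alignments alone (0.56, adjusted p = 0.140 by limma).

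**Figure D2:**
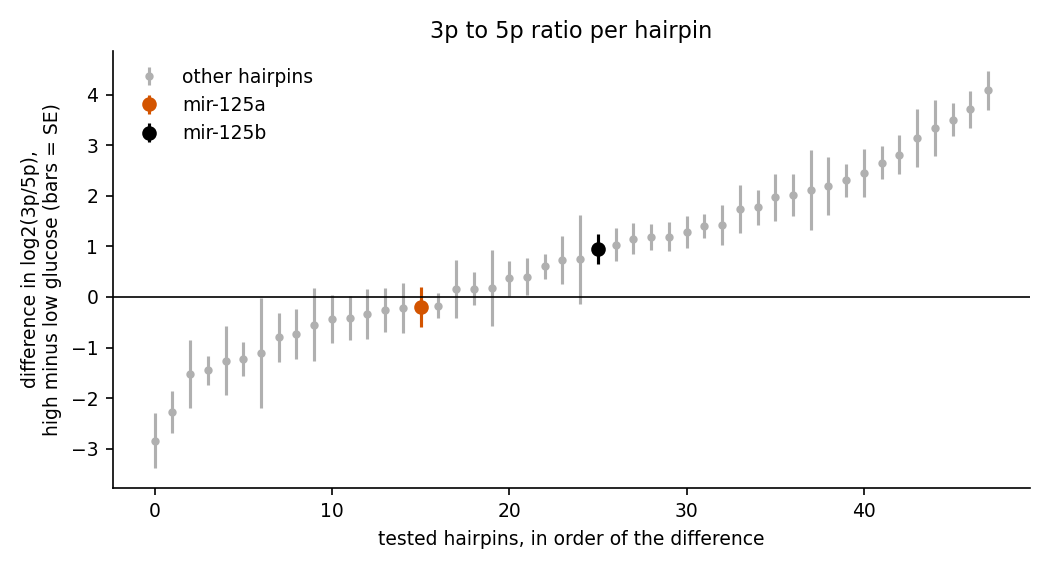
Difference in the log2 ratio of 3p to 5p counts, high minus low glucose, for each of 48 hairpins in rank order; bars are SE, orange is mir-125a and black is mir-125b. mir-125b, at 0.95, lies near the middle of the hairpins and mir-125a, at -0.21, lies just under 0.

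The 3′ ends of miR-125b-5p reads differed between the groups. Its 5 most abundant sequences all start at the same base, so that they share the seed, and differ in where they end, as the capitals past the 17-nt form show.
miR-125b-5p, 21 nt: tccctgagaccctaactTGTG
miR-125b-5p, 22 nt: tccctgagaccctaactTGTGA
miR-125b-5p, 17 nt: tccctgagaccctaacT
miR-125b-5p, 20 nt: tccctgagaccctaactTGT
miR-125b-5p, 23 nt: tccctgagaccctaactTGTGAA
In the 17-nt line the capital is its last base. The 23-nt form ends in an A that the hairpin does not have, T23A with positions counted from 1 at the 5′ end of the read and the hairpin's base first. The 22-nt form is the RefSeq mature sequence.

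The 21-nt form was most of miR-125b-5p in low glucose and a minor part in high glucose. It made up 70.6, 73.2 and 67.2% of the arm's counts in low glucose and 20.6, 18.0 and 27.9% in high glucose, and the groups lay far apart. In the smallest library this is 1124 of 1672 counts, with a 95% Wilson interval of 64.9 to 69.4% for counting error only. The log2 odds of this form within its arm differed by -3.08 between high and low glucose (SE 0.27, adjusted p = 0.000184 by limma over 546 sequences). In level it stood at 4286, 3751 and 6153 CPM in high glucose and at 9575, 12695 and 10076 CPM in low glucose, a ratio of means of 0.439. Tested as the only sequence of its arm, it was lower in high glucose, with a log2 fold change of -0.89 (adjusted p = 0.0238 by edgeR), while the arm summed over all sequences was not.

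The forms on either side of it rose as shares. The 17-nt form, which keeps the seed and lacks the 3′ part, was 18.6, 23.3 and 14.1% of the arm in high glucose and 1.52, 1.47 and 3.11% in low glucose. Its log2 odds were 3.46 higher (SE 0.37, adjusted p = 0.000540 by limma), and its mean level was 3947 CPM against 309 CPM. The 20-nt form was 15.5, 18.7 and 14.9% against 4.26, 3.79 and 4.55% (log2 odds 2.12 higher, SE 0.21, adjusted p = 0.000334 by limma). The 22-nt form was 26.3, 20.6 and 25.1% against 12.9, 10.4 and 14.2% (log2 odds 1.14 higher, SE 0.23, adjusted p = 0.00714 by limma). For none of these 3 forms did the groups overlap.

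The 23-nt form was 4.16, 1.93 and 4.17% against 1.02, 1.93 and 1.91%, with log2 odds of 0.99 (SE 0.40, adjusted p = 0.0838 by limma). Shares within an arm are tied, since a fall in 1 form raises the others. Of 12 sequences of miR-125b-5p tested, 6 were called higher and 3 lower in high glucose as shares of the arm, where 16.5% and 28.2% of all 546 tested sequences were (44.7% in either direction). Among those called higher, the 16-nt and 18-nt forms passed the filter only through high glucose (means of 0.364 and 0.279% in low). Among those called lower, the 21-nt forms with G21A and T20C passed only through low glucose (0.288 and 0.0317% in high). The direction of these calls was tied to the filter.

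**Figure D3:**
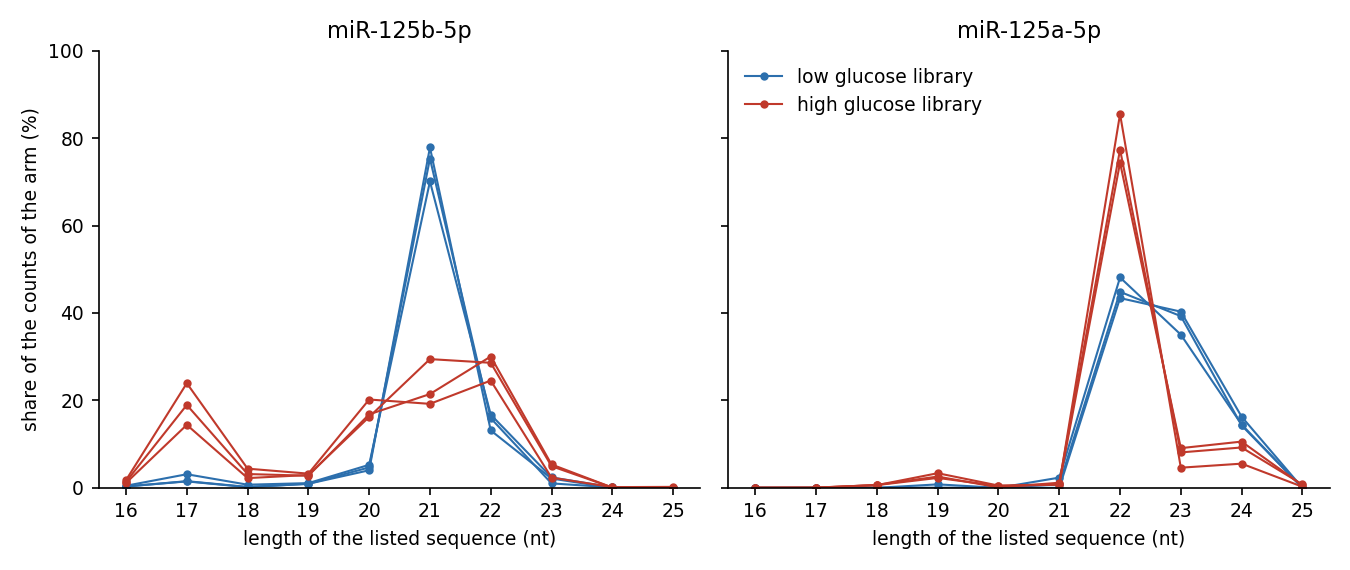
Share of the counts of miR-125b-5p (left) and miR-125a-5p (right) by length of the listed sequence in nt; each line is 1 library, blue for low and red for high glucose. For miR-125b-5p the single peak at 21 nt in low glucose, 70.1 to 77.9% of counts, gives way in high glucose to counts spread over 17, 20, 21 and 22 nt.

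By length class, sequences of 16 to 19 nt were 26.3, 33.3 and 20.7% of miR-125b-5p in high glucose and 2.94, 2.86 and 5.38% in low glucose. The means were 26.8 ± 6.33% and 3.73 ± 1.43% (SD, n = 3 each; exact two-sided permutation p = 0.1, adjusted 0.138). Outside the family the same lengths, pooled over arms, were 8.11, 8.03 and 4.96% of the counts against 4.49, 4.15 and 6.08%, which overlap. This pooled share also depends on which arms are abundant. Within arms, the share of 16 to 19 nt was higher in high glucose by a median of 0.82 percentage points over 78 arms. A rise was therefore not particular to miR-125b-5p. The mean length of miR-125b-5p reads was 20.2 nt in high and 21.02 nt in low glucose, and that of miR-125a-5p was 22.1 nt and 22.7 nt. Over the 78 arms with enough counts, the median difference in mean length was -0.10 nt, 53 were shorter in high glucose, and the range ran from -0.96 to 0.83 nt. Of these arms, 2 shortened more than miR-125b-5p, whose difference was -0.82 nt. They are the 5p arm of a predicted hairpin and miR-27b-3p, named after their values were seen. In 1 arm, miR-27b-3p again, the share of 16 to 19 nt rose further, from 11.6 to 50.4%.

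miR-125a-5p changed its ends in another way, from 23 nt toward 22 nt. Its most abundant sequences also share their start, and the capitals mark the bases from 22 on.
miR-125a-5p, 22 nt: tccctgagaccctttaacctgT
miR-125a-5p, 23 nt: tccctgagaccctttaacctgTG
miR-125a-5p, 24 nt: tccctgagaccctttaacctgTGA
miR-125a-5p, 22 nt with T22C: tccctgagaccctttaacctgC
miR-125a-5p, 24 nt with A24T: tccctgagaccctttaacctgTGT
The exact 24-nt form is the RefSeq mature sequence.

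The exact 22-nt form was 71.5, 79.1 and 69.2% of miR-125a-5p in high glucose and 42.5, 41.7 and 39.5% in low glucose. The low glucose value with the fewest counts rests on 91 of 214, with a 95% Wilson interval of 36.1 to 49.2%. The log2 odds were 1.97 higher in high glucose (SE 0.25, adjusted p = 0.000858 by limma). The 23-nt form was 7.24, 3.70 and 8.40% against 32.2, 36.9 and 39.1%, with log2 odds of -3.13 (SE 0.35, adjusted p = 0.000604 by limma). For both forms the groups lay apart.

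In level, the rise of miR-125a-5p was carried by the 22-nt form. It stood at 5885, 9569 and 5778 CPM in high glucose against 627, 703 and 914 CPM in low glucose. The 23-nt form stood at 596, 448 and 701 CPM against 475, 623 and 905 CPM, and these overlap. Pooled over all arms outside the family, 35.4 to 39.5% of reads were 22 nt and 20.8 to 26.9% were 23 nt in high glucose. In low glucose these were 22.7 to 24.9% and 46.1 to 49.5%. Pooled shares also depend on which arms are abundant. Within arms, the median difference in mean length was -0.10 nt over 78 arms, against -0.53 nt for miR-125a-5p, and 6 arms shortened more. The part of either in the shift of miR-125a-5p was not tested. Reads of 21 nt outside the family, pooled likewise, were 13.4 to 18.5% in high and 10.3 to 11.5% in low glucose, while the 21-nt form of miR-125b-5p fell as a share of its arm.

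The exact 24-nt form was 5.01, 2.01 and 5.84% against 6.54, 9.13 and 8.53% (log2 odds -1.22, adjusted p = 0.0509 by limma). The form with A24T was 3.89, 3.27 and 4.20% against 6.54, 5.16 and 7.75% (log2 odds -0.96, adjusted p = 0.0131 by limma), a call lost without low glucose library 1 (-0.94, adjusted p = 0.0567 by limma). The form with T22C, with 7, 8 and 10 counts in low glucose, was too scarce there for the test. Of 4 sequences of miR-125a-5p tested, 1 was called higher and 2 lower, where 16.5% and 28.2% of all 546 tested sequences were. The form with A24T, among those called lower, passed the filter only through low glucose (means of 3.79% in high and 6.48% in low). Its direction was thus tied to the filter.

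**Figure D4:**
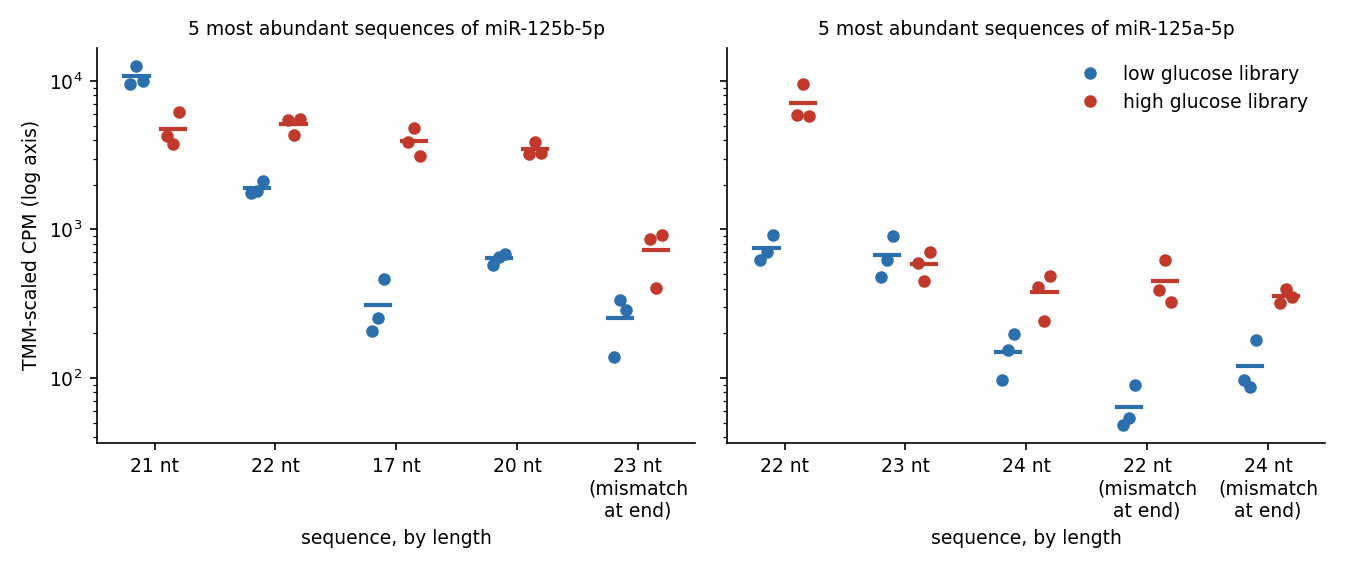
TMM-scaled CPM (log axis) of the 5 most abundant sequences of miR-125b-5p (left) and miR-125a-5p (right), in order of abundance and labelled by length; points are libraries, lines are means of 3, blue is low and red is high glucose. The 21-nt form of miR-125b-5p is lower in all 3 high glucose libraries, the 23-nt form of miR-125a-5p overlaps, and the other 8 forms are higher.

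Other starts and mismatches were a small part of the 5p arms in both groups. Sequences starting at another base, which have another seed, were 1.48 ± 0.506% of miR-125b-5p in high and 0.416 ± 0.0964% in low glucose (SD, n = 3 each; exact two-sided permutation p = 0.1, adjusted 0.138). For miR-125a-5p they were 0.833 ± 0.192% and 0.623 ± 1.08%, which overlap (exact two-sided permutation p = 0.8). A mismatch anywhere was present in 9.67 ± 0.618% of miR-125b-5p counts in high and 8.76 ± 0.953% in low glucose (exact two-sided permutation p = 0.3), and in 10.9 ± 0.488% and 13.0 ± 2.36% of miR-125a-5p counts (exact two-sided permutation p = 0.3).

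One scarce sequence of miR-125b-5p was picked out after its values were seen. It is TCCCTGAGACCCTAACTTGCG, the 21-nt form with T20C. It had 4, 6 and 14 counts in the large high glucose libraries and 34, 38 and 14 counts in the small low glucose libraries. Its share of the arm was 0.0198, 0.0235 and 0.0518% against 1.73, 1.47 and 0.837%, and its log2 odds differed by -5.21 (SE 0.37, adjusted p = 0.000127 by limma). It passed the filter for testing only through its low glucose share, so its direction was tied to the filter. The test is therefore no support for the difference, and the values are a description.

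Forms of the 3p arms with and without a mismatch at the last base, which is in capitals, show the ending that miR-125b-1-3p and miR-125a-3p have in common. In the second line the capital first base is the extra base at the start.
miR-125b-1-3p, 21 nt with C21T: acgggttaggctcttgggagT
miR-125b-1-3p, 22 nt with C22T: CacgggttaggctcttgggagT
miR-125b-1-3p, 21 nt, exact: acgggttaggctcttgggagC
miR-125a-3p, 21 nt, exact: acaggtgaggttcttgggagC
miR-125a-3p, 21 nt with C21T: acaggtgaggttcttgggagT
miR-125b-2-3p, 21 nt, exact: acaagtcaggctcttgggacC
miR-125b-2-3p, 22 nt, exact: acaagtcaggctcttgggaccT
The form of miR-125b-1-3p with the mismatch was 60.9, 65.4 and 57.9% of the arm in high glucose and 67.0, 65.1 and 60.8% in low glucose, so most reads of this arm did not match the hairpin at their last base in either group. A mismatch at the last base was present in 80.9 ± 2.30% and 79.3 ± 0.691% of its counts (SD, n = 3 each). The log2 odds of the main form differed by -0.17 (SE 0.22, adjusted p = 0.557 by limma).

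The second form of miR-125b-1-3p starts 1 base earlier and so has the seed ACGGGTT in place of CGGGTTA, as DNA letters. It was 15.5, 12.2 and 14.9% of the arm in high glucose and 9.46, 9.13 and 14.0% in low glucose, which overlap (log2 odds 0.40, SE 0.26, adjusted p = 0.240 by limma). The exact 21-nt form was 6.24, 5.54 and 5.86% against 8.95, 10.3 and 13.0%, and its log2 odds fell by 0.99 (SE 0.22, adjusted p = 0.0104 by limma).

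In miR-125a-3p the exact 21-nt form led, with 103, 247 and 233 counts in high glucose and 7, 4 and 3 in low glucose. Its C21T form had 0, 54 and 101 counts in high glucose and 0, 2 and 0 in low glucose. The leading forms of miR-125b-2-3p had 35, 43 and 25 counts for 21 nt and 36, 35 and 48 for 22 nt in high glucose, against 8, 8 and 2 and 4, 4 and 0 in low glucose. These arms had too few counts in low glucose for a test of single sequences.

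The partners of the family are miR-351, which has the same seed, and the arms of the hairpins that lie in the same genomic clusters. Of 14 such arms, 13 were listed (all but miR-99a-3p) and 12 were tested. Of these, 10 were called higher in high glucose and 0 lower, where 40.6% of all arms were called higher, and their median log2 fold change was 2.68 beside 0.67 over all arms. Among the 12, miR-351-3p and let-7e-3p were at 0 in 2 or more low glucose libraries and passed the filter through the deeper high glucose libraries, so their direction was set by the filter. Of the 10 listed in every library, 9 were called higher and 0 lower, with a median of 2.49. The count holds let-7a-3p beside let-7c-3p although they are not separate, since 100% of the reads of the former and 98.6% of the latter are listed under another arm too. Each of them had 3, 2 and 8 counts in low glucose and also passed the filter through the high glucose libraries. The filter thus favoured their direction, in this count and in its median.

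miR-351-5p moved much as miR-125a-5p did. It stood at 9814, 7382 and 8262 CPM in high glucose and at 1185, 1272 and 1488 CPM in low glucose, with a log2 fold change of 2.69 (SE 0.19, adjusted p = 2.58e-05 by edgeR). With it, miR-125a-5p and miR-125b-5p, every rat microRNA of the seed CCCUGAG in the table was measured. In each the high glucose libraries lay above the low glucose ones with TMM scaling, as they did in 45.6% of all 298 tested arms. With so few members this describes them and is no trait of the seed. With upper quartile scaling the fitted change of miR-125b-5p was -0.12 and that of miR-351-5p was 2.11. miR-351-3p was listed at 0 in the low glucose libraries and had 28, 56 and 54 counts in the high glucose libraries.

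In the cluster of mir-125a, the 5p arms of all 3 hairpins rose by similar amounts. miR-99b-5p stood at 28995, 44396 and 38989 CPM against 6957, 8369.8 and 7602 CPM, with a log2 fold change of 2.29 (SE 0.20, adjusted p = 6.43e-05 by edgeR). For let-7e-5p the log2 difference was 2.06 (SE 0.26, adjusted p = 0.000406 by edgeR), beside 2.39 for miR-125a-5p. miR-99b-3p rose less, by 0.85 on the log2 scale (SE 0.17, adjusted p = 0.00267 by edgeR), and with upper quartile scaling its change of 0.26 was not called. let-7e-3p had 0, 0 and 2 counts in low glucose, and its log2 fold change of 2.66 did not pass the test (adjusted p = 0.0730 by edgeR).

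In the clusters of mir-125b the neighbours parted from each other. miR-99a-5p, beside mir-125b-2, stood at 46825, 61883 and 61675 CPM in high glucose and 38849.8, 44079 and 42403 CPM in low glucose. Its log2 fold change was 0.44 (SE 0.16, adjusted p = 0.0413 by edgeR), close in size to that of miR-125b-5p, and it was -0.14 with upper quartile scaling. The call was also lost with DESeq2 (0.30, adjusted p = 0.144), in thinned libraries (0.28), and without high glucose library 2 (0.30) or 3 (0.37) or low glucose library 1 (0.44) or 3 (0.42). For let-7c-5p in the same cluster the log2 difference was 3.00 (SE 0.18, adjusted p = 2.25e-05 by edgeR).

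miR-100-5p, beside mir-125b-1, stood at 6890, 6646 and 10128 CPM against 7529, 9595 and 8014 CPM, which overlap. Its log2 fold change was -0.09 (SE 0.21, adjusted p = 0.728 by edgeR). For let-7a-5p the log2 difference was 2.84 (SE 0.26, adjusted p = 7.42e-05 by edgeR), but its mature sequence is also made from other copies than let-7a-2, and likewise for let-7c-5p. miR-100-3p was listed in 1 high glucose library with 13 counts and was not tested.

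**Figure D5:**
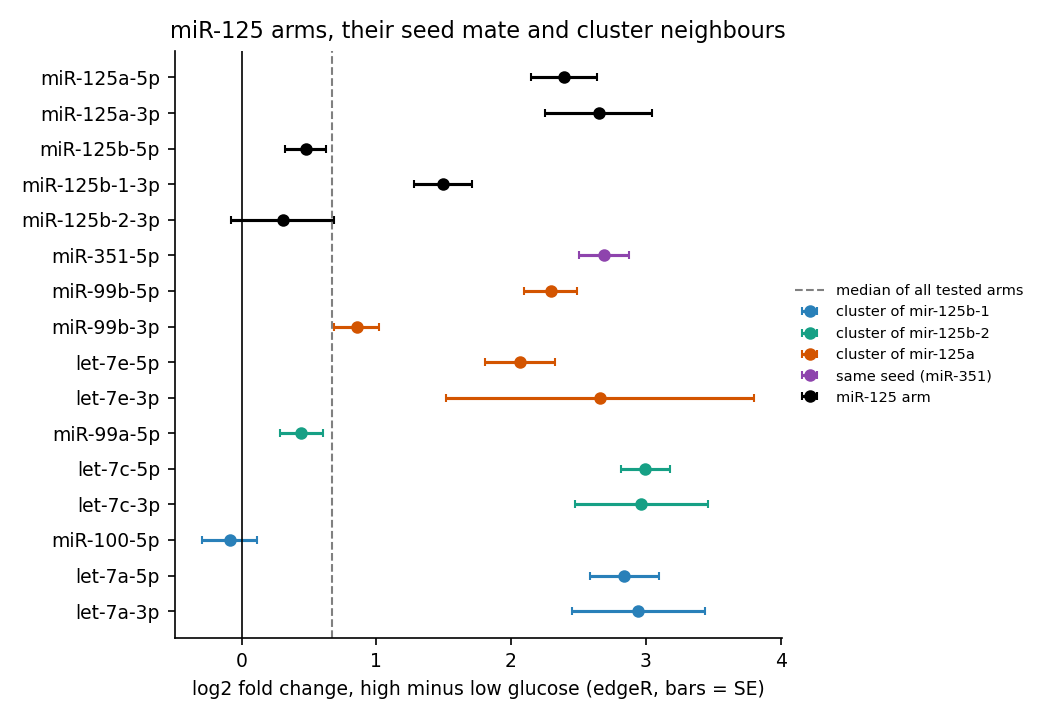
log2 fold change, high minus low glucose, with its SE, for the 5 miR-125 arms (black) and 11 tested partner arms; miR-351-3p, at 0 in low glucose, is left out, and the dashed line is the median of all tested arms at 0.67. miR-125a-5p lies with miR-99b-5p and let-7e-5p between 2.06 and 2.39, and miR-125b-5p lies with miR-99a-5p between 0.44 and 0.48.

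The annotated arms whose pattern lay nearest to each guide arm were found from centred log2 CPM over the 6 libraries, among 194 arms, by the root mean square difference. For miR-125a-5p these were miR-10b-5p (0.109), miR-10a-5p (0.157) and miR-99b-5p (0.233). The hairpins of the miR-10 family lie in the Hox gene clusters. miR-10b-5p averaged 60946 CPM in the high and 12370.0 CPM in the low glucose libraries, and the averages of miR-10a-5p were 49293 and 11207 CPM. For miR-125b-5p the nearest were miR-99a-5p (0.135), miR-224-5p (0.136) and miR-106b-3p (0.185). miR-125a-5p and miR-125b-5p themselves lay 0.994 apart by the same measure, which uses the group difference and is given as a description.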

How the data were processed

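Small RNA reads were measured in 6 libraries of RSC96 cells, grouped and numbered by their titles. The files deposited by the authors hold raw counts per distinct sequence and hairpin, per the file headers. Of tools, the submitters' processing notes list Novoalign 3.02.12 and cutadapt 1.9.3, with no roles. Genome build: not given in the sources used here, nor is the hairpin release. Tested on the files, listed sequences are 16 to 40 nt long, carry at most 1 mismatch and have at least 2 reads, and a sequence that matches more than 1 hairpin has its reads divided among them. Sequences from RefSeq were matched by name. The hairpin sequence of mir-125b-2 is not reported here.

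Counts were summed per arm, taking a read as 5p or 3p from whether its centre lies before or after the middle of the hairpin, and joining copies except the 3p arms of mir-125b. Replicates were checked against counting noise: the chi-square per degree of freedom over arms was 4.18 to 101 for pairs within a group, so none was a repeat deposit. Arms were tested in edgeR 4.0.16 by its quasi-likelihood method after TMM scaling, with the filterByExpr filter (minimum count 10), robust dispersions and Benjamini-Hochberg adjustment at 0.05 over all 298 tested arms. CPM values are TMM-scaled. Each SE of a log2 fold change was recovered from its F statistic (estimate over the square root of F). limma 3.58.1 tested, with a prior count of 2, the log2 ratio of 3p to 5p counts per hairpin and the log2 odds of a sequence within its arm, and exact two-sided permutation tests were used for shares. A sequence was tested when its mean share of its arm came to 10 counts or more in the arm's smallest library total. This replaced a planned minimum mean of 10 counts per library after a trial on simulated data. The planned filter gave 29 false calls among 81 for 1537 sequences, against 1 among 25 for 594 sequences with the new filter. Here a false call was counted only in arms without an altered sequence, since shares within an arm are tied. The edgeR step recovered 32 of 35 simulated 4-fold and 20 of 41 simulated 2-fold changes among 304 arms, with 5 false calls among 57. The step for arm ratios recovered 6 of 9 simulated 4-fold changes among 53 hairpins, with 2 false calls among 8. The simulations had fixed dispersions and changed a minority of features, in both directions, unlike these data, so their error rates may not hold here. DESeq2 1.42.0, limma-voom, other scalings and filters, libraries thinned to 114497 reads and single-library omissions were alternatives. R 4.3.3, Python 3.11.15, pandas 2.3.3, NumPy 2.4.6, SciPy 1.17.1 and matplotlib 3.10.9 were used.

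Named are the 5 arms, the 5 most abundant sequences of each 5p arm and 2 of each 3p arm by mean CPM (with the exact form of miR-125b-1-3p added for its ending), the partner arms, and the 3 annotated arms nearest to each guide arm. The members, lists and rules were chosen with earlier results of these data known.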

Additional observations from a re-analysis of the deposited data

How the results depend on the processing

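miR-125a-5p, miR-125a-3p and miR-125b-1-3p remained called higher under every alternative that tested them (19, 18 and 19), with log2 fold changes of 1.83 to 3.53, 2.06 to 2.88 and 0.91 to 1.71; thinned libraries left miR-125a-3p untested. miR-125b-5p was not called with RLE scaling (0.34), total counts (0.34), DESeq2 (0.34), thinned libraries (0.34) or sequences of 20 nt or more (0.14, an alternative chosen after seeing the data), was -0.12 with upper quartile scaling, and was called lower as its most abundant sequence alone (-0.89, adjusted p = 0.0238 by edgeR, hence 1 miR-125 arm lower); leaving out 1 library gave 0.42 to 0.73. miR-125b-2-3p was -0.32 with upper quartile scaling and -0.23 as its most abundant sequence, and -0.046 to 0.64 with 1 library left out. Thinned libraries called 2 miR-125 arms higher. Over all arms, 59 were called higher and 61 lower of 162 tested in thinned libraries (median -0.047), 78 higher among annotated hairpins, and 79 to 117 higher and 41 to 58 lower with 1 library left out, where fewer or other arms were tested. With upper quartile scaling 91 arms were called higher and 93 lower, against 121 and 66 with TMM, 1 partner arm was called lower (miR-100-5p, -0.68, adjusted p = 0.0266 by edgeR), and miR-99a-5p was -0.14; its call held in 9 of 19 alternatives. The fold change of miR-100-5p was 0.082 with a mean CPM of 10 or more, 0.041 with exact alignments, 0.0077 as its most abundant sequence and -0.33 to 0.17 with 1 library left out. The arm ratio of mir-125a was 0.14 with a prior count of 0.5 and -0.51 to 0.047 with 1 library left out. That of mir-125b was 0.56 with exact alignments and 0.84 to 1.16 with 1 library left out. Among sequences, the log2 odds of the exact 24-nt form of miR-125a-5p passed the test in thinned libraries (-1.17, and -1.53 to -0.73 with 1 library left out), as did those of the 23-nt form of miR-125b-5p (1.08, and 0.70 to 1.37). The form with A24T was -1.11 to -0.86 with 1 library left out. Starts of miR-125a-5p at another base differed by -0.069 percentage points in thinned libraries and by -0.10 (without low glucose library 2 or 3) to 0.83 with 1 library left out. No sequence of several form classes was listed in all 6 libraries, so that alternative gave no value for them. The cause of these differences was not tested.

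Same-numbered libraries did not deviate together (correlations of 0.044, 1.88e-05 and -0.0266), so no pairing by number was seen. With 3 libraries per group and small low glucose libraries, this cannot show that there was none. With the replicate number as a block, miR-125b-5p was at 0.48 (adjusted p = 0.0508 by edgeR) and the arm ratio of mir-125b at 0.95 (adjusted p = 0.0876 by limma), and miR-99a-5p was at 0.43 (adjusted p = 0.0699 by edgeR), so these 3 calls were lost, and the counts over all arms were 105 higher and 58 lower.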
